A study of Mus musculus with 6 samples.

Results

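The serum amyloid A genes Saa1, Saa2, Saa3 and Saa4 and the short pentraxin genes Apcs and Crp were followed in mouse liver. Members were taken by gene symbol, using probe sets annotated to exactly 1 gene. This rule found 5 of the 6 genes, among 22180 genes measured. Saa1 had no probe set of its own, and the only probe set annotated to Saa1 was annotated to Saa2 as well. That shared probe set is described beside Saa2 and counted under neither gene.

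Serum amyloid A proteins are small apolipoproteins that travel on high-density lipoprotein. Saa1 and Saa2 are the main acute phase forms made by hepatocytes, Saa3 is made largely by macrophages, adipocytes and epithelia, and Saa4 is the constitutive form. Short pentraxins are ring-shaped plasma proteins that bind microbes and cell debris and engage complement and Fc receptors. Apcs encodes serum amyloid P, the main acute phase pentraxin of the mouse, and Crp encodes C-reactive protein, which varies little in inflammation in this species. Interleukin 6 and interleukin 1 drive the hepatic acute phase response through STAT3, C/EBP and NF-kB factors.

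Total liver RNA from 6 male C57BL/6N mouse samples, at 2 months of age, was measured on 1 whole-transcript array each. The knockout group (3 arrays) lacked cGMP-dependent protein kinase 1 (cGK1, gene Prkg1) and, per the series description, carried a smooth muscle rescue of the kinase. The control group (3 arrays) is named wild type in the sample labels. No source used here names the promoter of the rescue or says whether the controls carried it. The labels do not say that replicates were separate animals. P-values therefore measure the spread between these samples, which may be technical in part.

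Expression is given as log2 RMA values, in which 1 unit is a doubling, and errors are SD with n = 3 per group unless stated. Each difference is the knockout mean minus the control mean in log2 units, with the standard error (SE) of the limma model and p-values adjusted over all 22180 genes. Array medians lay between 3.11 and 3.16, and genes with a mean at or under the median of the whole table, 3.14, are called dim. Prkg1 did not check the labels, since its mean was dim, at 3.31, 3.04 and 3.22 in knockout replicates 1 to 3 and 3.32, 2.97 and 2.95 in the controls (limma adjusted p = 0.837). The liver marker Alb, encoding albumin, lay at 13.3 to 13.4 on all 6 arrays. Knockout arrays spread more than controls, with a median SD of a gene of 0.193 against 0.146. Over all genes 0, or 0%, passed an adjusted p of 0.05 in limma, and 2334 had an unadjusted p under 0.05.

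The serum amyloid A genes lie together on chromosome 7 and the pentraxin genes on chromosome 1 of the mouse assembly GRCm38.p6, per the RefSeq gene table. The cluster runs over 42316 bases in the order Saa3 (chr7:46711998-46719615), Saa4 (chr7:46727992-46732603), Saa1 (chr7:46740497-46743181) and Saa2 (chr7:46751833-46754313). Saa1 and Saa2 face away from each other, with 8853 bases between their annotated start sites. Crp (chr1:172698056-172699966) and Apcs (chr1:172893961-172895054) lie 193995 bases apart.

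The 250 bases before the annotated start of Saa2, Apcs and Crp are shown. The first 2 genes were chosen because their means differed most between the groups, and Crp, the relative of Apcs, because its groups overlapped. For Saa1 and Saa3 the start site used lies 201 and 3939 bases inside the annotated span of the gene, so only 30 bases round single motif matches are shown for them. The 2 matches of Saa1 are shown to set them beside Saa2, and the match of Saa3 is the one nearest its start. Sequences come from RefSeq (GRCm38.p6), which held all 6 members, and are written 5′ to 3′ on the strand of the gene. Capitals mark matches, on either strand, to the motifs searched.
Saa2 (chr7:46751583-46751832, plus strand): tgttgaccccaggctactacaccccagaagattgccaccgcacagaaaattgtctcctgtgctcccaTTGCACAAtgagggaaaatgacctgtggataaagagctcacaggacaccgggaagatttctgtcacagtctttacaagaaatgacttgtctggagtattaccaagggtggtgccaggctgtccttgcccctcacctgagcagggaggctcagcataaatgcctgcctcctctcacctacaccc
Saa1 (chr7:46743144-46743173, minus strand): ctgtgctcccaTTGCACAAtgagggagaat
Saa1 (chr7:46743048-46743077, minus strand): ttgtctggagtTTTCCCAAgggtggtgcca
Saa3 (chr7:46715757-46715786, minus strand): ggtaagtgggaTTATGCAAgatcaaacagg
Apcs (chr1:172895055-172895304, minus strand): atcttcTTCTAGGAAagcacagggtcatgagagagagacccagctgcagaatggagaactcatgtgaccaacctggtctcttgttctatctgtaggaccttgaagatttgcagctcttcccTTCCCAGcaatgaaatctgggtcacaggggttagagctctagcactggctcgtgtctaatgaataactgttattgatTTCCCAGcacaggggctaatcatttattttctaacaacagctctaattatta
Crp (chr1:172697806-172698055, plus strand): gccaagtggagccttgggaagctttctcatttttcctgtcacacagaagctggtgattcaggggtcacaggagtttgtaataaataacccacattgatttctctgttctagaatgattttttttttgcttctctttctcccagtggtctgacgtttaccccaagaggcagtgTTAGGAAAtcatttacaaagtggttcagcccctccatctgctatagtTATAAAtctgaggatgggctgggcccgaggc

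The motifs were the C/EBP motif TTNNGNAA, the STAT motif TTCNNNGAA, the interleukin 6 response element CTGGGAA, the TATA box TATAAA and the NF-kB consensus by its name. Overlaps between motifs were allowed, and 0 NF-kB matches were found in these windows, which says only that those letters are not there. Saa1 and Saa2 were near copies upstream, with 94.8% identity over the aligned window, 11 mismatched bases and 2 gap bases. All other pairs of members had 45.5% to 53.3% identity in the same kind of alignment. Pairs across the 2 families spanned this range, from 45.5% for Saa1 with Crp to 53.3% for Saa4 with Apcs. Windows of other genes were not aligned, so this level does not show shared sequence. Saa1 and Saa2 shared the C/EBP match TTGCACAA, at position -182 in Saa1 and -183 in Saa2, counted from the start site, and Saa1 had another, TTTCCCAA, at -86 where Saa2 had none. Saa3 had 4 C/EBP matches, Saa4 had 2 and Crp had 1, with a TATA box at -31 in Crp. Apcs had 0 C/EBP matches, 1 STAT match and 2 interleukin 6 response elements. Of 32851 RefSeq windows of the same length, 36.8% held a C/EBP match, 7.02% a STAT match, 9.1% the interleukin 6 response element, 12.4% the TATA box and 3.9% the NF-kB consensus. A match describes letters and not a bound site.

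**Figure D1:**
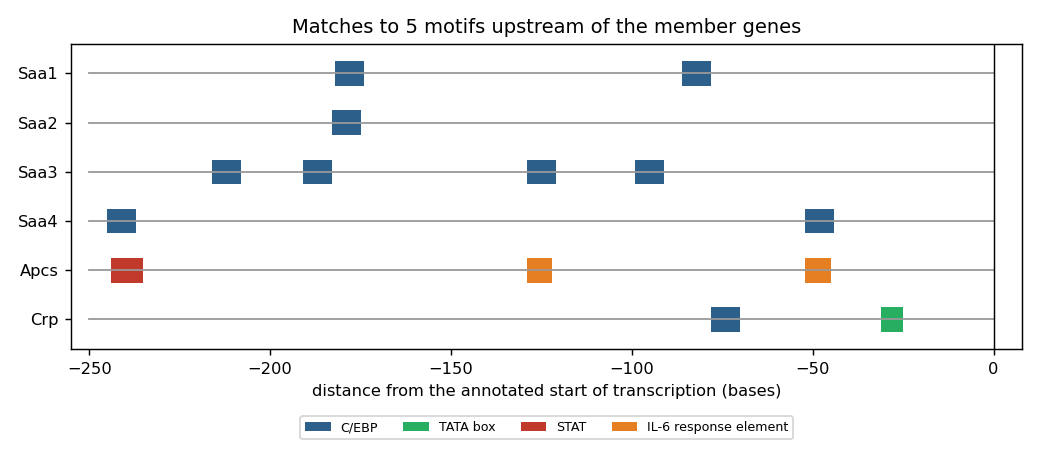
Matches to the searched motifs in the 250 bases before each gene, plotted by distance in bases from the annotated start of transcription at 0, with 1 row per gene and 1 colour per motif. Saa1 and Saa2 share a C/EBP match near -182, and STAT and interleukin 6 response element matches are seen for Apcs alone among these 6 windows.

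By mean, Saa2 and Apcs lay far higher in the knockout and Saa4 slightly higher, while Saa3 and Crp had overlapping groups. With 3 arrays a group, Saa2 was 15.1-fold higher (95% confidence interval 3.95 to 57.5) and Apcs 4.40-fold higher (3.07 to 6.32). Saa4 was 1.38-fold higher (1.07 to 1.78). No member passed an adjusted p of 0.05 in limma (0 of 5). Without knockout replicate 3, Saa2 and Apcs passed (2 of 5), as did 66 of all genes (0.298%). In 3 of the 5 members all knockout arrays lay above all control arrays, a pattern found in 7.61% of all genes, and the same 3 had an unadjusted p under 0.05 with a higher knockout mean, as did 5.06% of all genes. No member had all knockout arrays below all controls (0 of 5, against 9.14% of all genes) or an unadjusted p under 0.05 with a lower mean (5.46% of all genes). The difference was above 0 in 4 of 5 members (50.2% of all genes), with a member median of 0.46 against 0.00 for all genes. It was 2 or more in Saa2 and Apcs, which are 2 of the 7 such genes in the table (0.0316%). Members were chosen with earlier results of these data known, so these counts describe them and do not test the family.

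**Figure D2:**
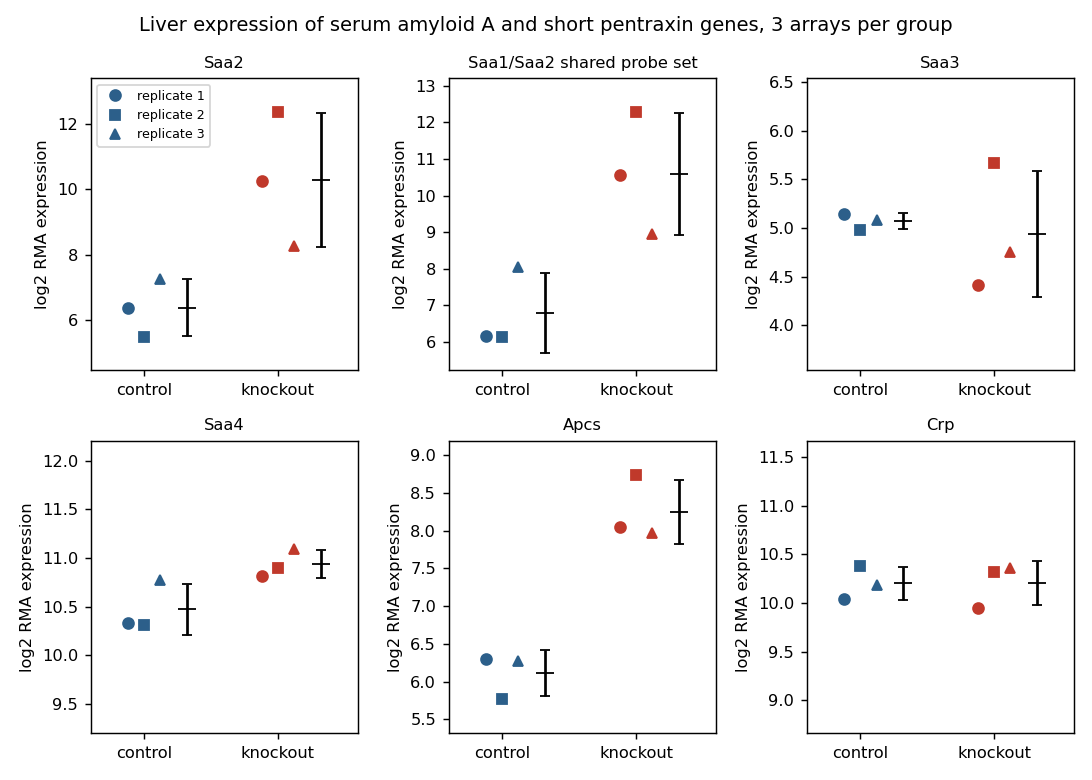
Log2 RMA expression of the 5 measured members and of the probe set shared by Saa1 and Saa2, with 1 point per array, blue for control and red for knockout, and black bars for the mean ± SD of 3 arrays. Each panel has its own axis range and no axis starts at 0. Knockout points lie above all control points for Saa2, the shared probe set, Saa4 and Apcs, and overlap with the controls for Saa3 and Crp.

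Saa2 encodes an acute phase apolipoprotein of high-density lipoprotein. Its level was 10.3, 12.4 and 8.26 in knockout replicates 1 to 3 and 6.39, 5.51 and 7.25 in control replicates 1 to 3. The groups did not overlap, but the lowest knockout array, replicate 3, lay only 1.01 above the highest control, replicate 3. Against the control mean, knockout replicate 1 was 14.8-fold, replicate 2 was 63.0-fold and replicate 3 was 3.68-fold higher. The knockout SD of 2.05 was larger than that of 99.95% of genes above the dim limit, and the control SD of 0.87 larger than that of 99.85%. The gene thus varied widely in both groups.

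The Saa2 means were 10.3 ± 2.05 and 6.38 ± 0.87, a difference of 3.91 (SE 0.86, 95% confidence interval 1.98 to 5.85), the second largest positive difference of all genes. Limma gave an unadjusted p of 0.001278 and an adjusted p of 0.237. The exact 2-sided permutation test gave p = 0.1, the smallest that 3 against 3 arrays allow. Its size moved with single arrays, most with knockout replicates 2 and 3. Without knockout replicate 3 the difference was 4.93 (30.5-fold) and passed, at a limma adjusted p of 0.0208. Without knockout replicate 2 it was 2.88 (7.38-fold, adjusted p = 0.219). It was 3.48 without control replicate 2 and 4.35 without control replicate 3.

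The probe set shared by Saa1 and Saa2 gave the same picture. Its level was 10.6, 12.3 and 8.95 in knockout replicates 1 to 3 and 6.17, 6.15 and 8.04 in the controls. Control replicate 3 was the highest control here and for Saa2, and knockout replicate 2 the highest knockout. The difference was 3.80 (SE 0.87), or 13.96-fold, with a limma adjusted p of 0.378 over all 41345 probe sets. Which of the 2 genes this signal came from cannot be told apart, and Saa1 transcript could also hybridise to the probe set named Saa2. The single-gene value of Saa2 is uncertain for that reason.

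Saa3, the form made largely outside hepatocytes, lay at 4.41, 5.66 and 4.75 in knockout replicates 1 to 3 and at 5.15, 4.98 and 5.08 in the controls. Knockout replicate 2 lay above all controls, and the other 2 knockout arrays lay below all of them. The difference was -0.13 (SE 0.28, 95% confidence interval -0.75 to 0.49, limma adjusted p = 0.900), an interval that spans 0.595-fold to 1.41-fold. The spread was 0.65 in the knockout and 0.083 in the controls. The sign depended on 1 array, being 0.14 when knockout replicate 1 was left out. Leaving out knockout replicate 2 gave -0.49, with an unadjusted p under 0.05 and a limma adjusted p of 0.327.

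Saa4, the constitutive form, lay at 10.8, 10.9 and 11.1 in knockout replicates 1 to 3 and at 10.3, 10.3 and 10.8 in the controls. The groups met closely, with 0.040 between the lowest knockout array and the highest control, replicate 3. The means were 10.9 ± 0.14 and 10.5 ± 0.26, a difference of 0.46 (SE 0.16, 95% confidence interval 0.096 to 0.83) that did not pass (limma adjusted p = 0.382). Unlike Saa2, its highest knockout array was replicate 3.

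Apcs, encoding serum amyloid P, had the smallest p of all 22180 genes. Its level was 8.04, 8.74 and 7.97 in knockout replicates 1 to 3 and 6.30, 5.77 and 6.28 in the controls. All knockout arrays lay at least 1.67 above the highest control, a wider gap than that of Saa2 although the mean difference was smaller. Against the control mean the 3 knockout arrays were 3.81-fold, 6.18-fold and 3.63-fold higher. The means were 8.25 ± 0.43 and 6.11 ± 0.30, a difference of 2.14 (SE 0.23, 95% confidence interval 1.62 to 2.66, a span of 3.07-fold to 6.32-fold).

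The limma adjusted p of Apcs was 0.0613, just short of the threshold, and the exact permutation test gave p = 0.1. Apcs passed without knockout replicate 3 (difference 2.28, limma adjusted p = 0.0123), with a filter on dim genes (0.0306) and with a variance prior that follows intensity (0.0202). Over all 15 alternatives its adjusted p ran from 0.0123 to 0.324 and its difference from 1.89 to 2.28.

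Crp, encoding the other short pentraxin, lay at 9.95, 10.3 and 10.4 in knockout replicates 1 to 3 and at 10.04, 10.38 and 10.19 in the controls. The groups overlapped, and 0 of 3 knockout arrays lay above all controls. The difference was 0.006 (SE 0.16, 95% confidence interval -0.35 to 0.37, limma adjusted p = 0.994). The interval spans 0.782-fold to 1.29-fold, so a change of the size seen for Apcs lies outside it.

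**Figure D3:**
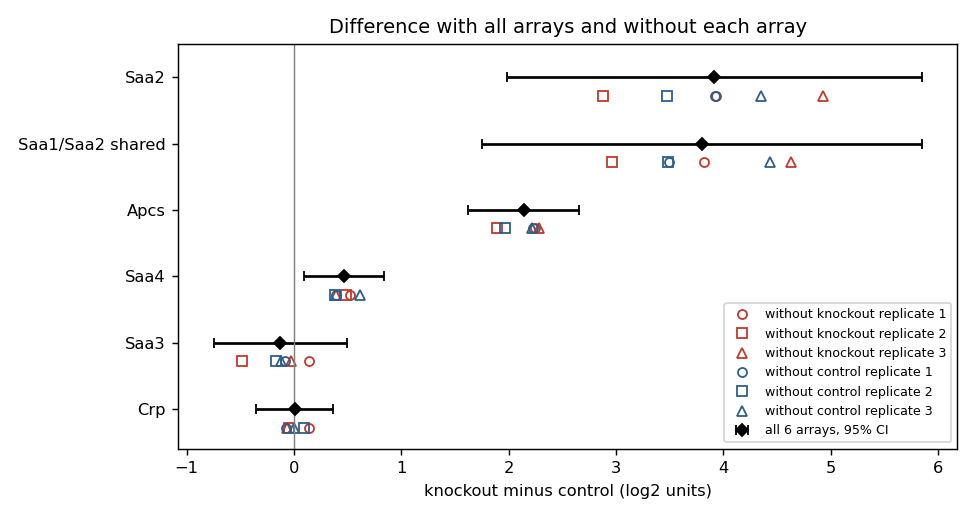
Difference between knockout and control in log2 units for each member and for the shared probe set (rows), with the estimate from all 6 arrays and its 95% confidence interval in black and the estimate without each array as open symbols. Without knockout replicate 2 the Saa2 difference is 2.88 and without knockout replicate 3 it is 4.93, whereas Apcs keeps between 1.89 and 2.28.

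To compare members with each other, the within-array difference between 2 members was set between the groups, for all 10 pairs. Differences that scale a whole array cancel in this measure. Groups did not overlap in 6 of 10 pairs, each at an exact permutation p of 0.1, the smallest possible, and 0.167 after adjustment over the pairs, so no pair passed. These 6 are the pairs that join Saa2 or Apcs with Saa3, Saa4 or Crp. The count thus largely restates the differences of Saa2 and Apcs given above. The share among other pairs of genes was not taken. Apcs minus Crp, its pentraxin relative, was 2.13 higher in the knockout. The Apcs minus Crp value was -1.90, -1.58 and -2.38 in knockout replicates 1 to 3 and -3.74, -4.61 and -3.91 in the controls. The values of the 2 pentraxin genes thus lay closer together in every knockout array than in any control.

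Within the serum amyloid A cluster, the knockout mean was 4.04 higher for Saa2 minus Saa3 and 3.45 higher for Saa2 minus Saa4, again with groups that did not overlap. Saa2 minus Saa3 was 5.86, 6.70 and 3.51 in knockout replicates 1 to 3 and 1.24, 0.53 and 2.17 in the controls. Saa3 minus Saa4 overlapped, with a difference of -0.59 (exact permutation p = 0.3). Across families, Saa2 minus Apcs was 1.78 higher in the knockout, but the groups overlapped (exact permutation p = 0.2). The value in knockout replicate 3, 0.29, lay under that in control replicate 3, 0.97. The difference of 1.78 became 0.99 without knockout replicate 2 and 2.65 without knockout replicate 3. Groups did not overlap for Saa3 minus Apcs (-2.27), Saa4 minus Apcs (-1.67) and Saa2 minus Crp (3.91). Saa4 minus Crp (0.46) and Saa3 minus Crp (-0.13) overlapped.

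**Figure D4:**
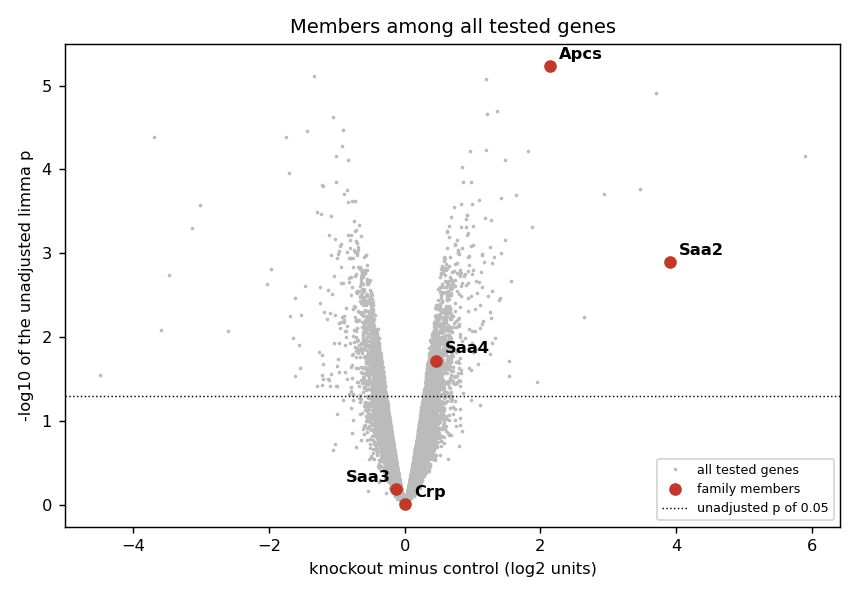
Difference between knockout and control in log2 units (horizontal) against the -log10 of the unadjusted limma p (vertical) for all 22180 genes in grey and the 5 measured members in red. Apcs lies at the top, Saa2 far to the right, Saa4 just above the dotted line for an unadjusted p of 0.05, and Saa3 and Crp near 0.

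Genes whose pattern over the 6 arrays was most like a member were found by the mean absolute gap between values, each taken relative to its own control mean, among 13056 other genes above the dim limit. Nearest to Saa2 were Orm2, encoding an orosomucoid (gap 0.50), Lcn2, encoding lipocalin 2 (0.60), and the transporter gene Slc22a26 (0.77). Orm2 lay at 8.92, 10.8 and 8.16 in knockout replicates 1 to 3 and at 5.85, 5.34 and 6.33 in the controls. Knockout replicate 2 was highest and replicate 3 lowest, as for Saa2, but Orm2 was picked for its likeness over these same values. Nearest to Apcs were Prg4, encoding lubricin (gap 0.26), the lipoprotein lipase gene Lpl (0.36) and Siglec1, a macrophage receptor gene (0.41). Prg4 lay at 7.598, 9.05 and 7.58 in knockout replicates 1 to 3 and at 6.45, 5.93 and 6.20 in the controls. No gene lay within a gap of 0.25 of Saa2 or Apcs (0 genes each).

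The other 3 members had many near neighbours. The gap is absolute, so these counts follow from the size of a member's difference. Within a gap of 0.25 there were 2260 genes for Saa3, led by Slc12a4, Plxnd1 and Cyyr1, 1597 for Saa4, led by Cuta, Gm8580 and Cd81, and 9168 for Crp, led by Cops7b, R3hdm1 and Clcn6.

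Cytokines and receptors that feed the acute phase response were measured for 18 of 18 listed genes, and 0 passed. At an unadjusted p under 0.05, 3 were higher and 0 lower, against 5.06% and 5.46% of all genes, and the list median was 0.16. The 3 became 1 without control replicate 1 or control replicate 2. These 3 were the receptor genes Il1r1 (0.39), Tnfrsf1a (0.45) and Il10rb (0.44), with limma adjusted p-values from 0.387 to 0.398. Il6, Il1b and Tnf, encoding the main driving cytokines, were dim, with mean levels of 1.61, 2.93 and 3.13 in the knockout and 1.3975, 3.21 and 2.87 in the controls. At such levels a difference would hardly show.

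Of 30 signalling and transcription factor genes, 26 were measured, and 0 passed. At an unadjusted p under 0.05, 4 were higher and 3 lower, against 5.06% and 5.46% of all genes, with a median of 0.03. The 3 became 1 without knockout replicate 1, control replicate 1 or control replicate 2. Socs3, the feedback inhibitor induced by STAT3, lay at 5.29, 5.14 and 4.92 in knockout replicates 1 to 3 and at 4.62, 4.56 and 4.67 in the controls (difference 0.50, SE 0.14, limma adjusted p = 0.306). Nfkbiz, encoding an NF-kB cofactor, differed by 0.51 (SE 0.15, adjusted p = 0.306) and Stat3 itself by 0.44 (SE 0.14, adjusted p = 0.346). In these 3 genes all knockout arrays lay above all controls. Of the 26 genes, 4 did so (7.61% of all genes) and 5 lay wholly below (9.14% of all genes). Hnf4a and Creb3l3, hepatocyte transcription factors, were among those 5 and differed by -0.36 and -0.35. The C/EBP genes Cebpa, Cebpb and Cebpd had overlapping groups (0.23, -0.15 and 0.24).

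Other pentraxin genes were measured for 7 of 8 listed, and 0 passed. Of these, 1 was higher and 0 lower at an unadjusted p under 0.05, against 5.06% and 5.46% of all genes. The 1 became 0 without knockout replicate 1, control replicate 2 or control replicate 3, and 2 without knockout replicate 3. The long pentraxin gene Ptx3 differed by 0.20 with overlapping groups, and the list median was 0.20. Nptx1, a neuronal pentraxin gene, had the largest statistic (0.48, limma adjusted p = 0.413), from a low control mean of 2.91. It was followed by Mptx2 (0.33) and Mptx1 (0.28, dim), encoding mucosal pentraxins.

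Receptors and lipoprotein partners of serum amyloid A were measured for 23 of 24 genes, and 0 passed, with a median of 0.13. Of these, 5 were higher and 0 lower at an unadjusted p under 0.05, against 5.06% and 5.46% of all genes. The 5 became 3 without any 1 of knockout replicates 1 and 2 and control replicates 2 and 3. Pltp, encoding the phospholipid transfer protein of high-density lipoprotein, differed by 0.89 (SE 0.21, limma adjusted p = 0.237), Cd36, a receptor for lipids and serum amyloid A, by 1.23 (SE 0.31, adjusted p = 0.264) and the protease gene Mmp9 by 0.46 (adjusted p = 0.346). Without knockout replicate 3, Cd36 passed (1.64, limma adjusted p = 0.0123). Apoa1, the main protein of that lipoprotein, lay at 11.5, 11.6 and 11.4 in knockout replicates 1 to 3 and at 11.7, 11.7 and 11.5 in the controls.

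Partners of the pentraxins, namely complement components, lectins and Fc receptors, were measured for 20 of 23 genes. Again 0 passed, but 12 were higher and 0 lower at an unadjusted p under 0.05, against 5.06% and 5.46% of all genes, with a median of 0.38. The count of 12 became 7 without knockout replicate 2 and 6 without control replicate 2 or control replicate 3. C4b, a complement gene made in hepatocytes, lay at 10.5, 10.8 and 10.3 in knockout replicates 1 to 3 and at 9.81, 9.68 and 9.88 in the controls (difference 0.77, SE 0.15, limma adjusted p = 0.215). C1qa, encoding a chain of the complement protein that pentraxins bind, differed by 0.84 (adjusted p = 0.221), and Fcgr4, an Fc receptor gene, by 1.14 (adjusted p = 0.221). Mbl1 and Mbl2, encoding mannose-binding lectins of hepatocytes, differed by 0.01 and -0.03.

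Markers of macrophages lay higher on the same arrays as Saa2 and Apcs. Of 14 measured markers of Kupffer cells and macrophages, 14 lay higher in the knockout (50.2% of all genes), with a median of 0.81. With an unadjusted p under 0.05, 12 were higher (5.06% of all genes). The count of 12 became 10 without knockout replicate 2 or control replicate 1. It became 9 without control replicate 2 or control replicate 3, and 13 without knockout replicate 3. None passed an adjusted p of 0.05 in limma (0 of 14). After C1qa, the largest statistics were those of the scavenger receptor genes Marco (0.74, adjusted p = 0.249) and Cd68 (0.98, adjusted p = 0.266). Without knockout replicate 3, Adgre1, encoding the macrophage antigen F4/80, passed (1.48, limma adjusted p = 0.026), as did Cd5l (1.81, 0.0400). The summed linear expression of the list was 1256, 2212 and 967 in knockout replicates 1 to 3 and 732 to 784 in the controls. Knockout replicate 2 was thus highest and replicate 3 lowest, as for Saa2 and Apcs. For Apcs, replicates 1 and 3 lay close together, at 8.04 and 7.97. The hepatocyte and adipocyte sums had the same order, and the stellate and endothelial sums were also highest in knockout replicate 2. The neutrophil, bile duct and lymphocyte sums were lowest in it among the knockout arrays. None of the 14 markers was dim. The list shares C1qa, C1qb and C1qc with the pentraxin partners. Its part in the differences of the members was not tested, and in whole liver a change in the number of cells cannot be told apart from a change in RNA per cell.

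The medians of the other marker lists were smaller, but some lists had sums that did not overlap between the groups. Such a sum weights the brightest markers most and does not describe each marker. Single markers lay wholly above the controls in 3 of 13 hepatocyte, 2 of 12 neutrophil and 1 of 6 bile duct genes. The same held for 3 of 10 endothelial, 1 of 8 lymphocyte, 2 of 12 stellate and 1 of 7 adipocyte genes, against 7.61% of all genes. Wholly below lay 3 of 13 hepatocyte markers and 1 of 12 stellate markers, Acta2, against 9.14% of all genes. Hepatocyte markers (13 measured) had a median of 0.02 and summed to 51318 to 54487 in the knockout and 50272 to 51107 in the controls. Their largest statistics were those of the fibrinogen genes Fgb (0.43) and Fga (0.41) and of Hnf4a. Fgb lay at 12.1, 12.6 and 12.3 in knockout replicates 1 to 3 and at 11.9, 11.8 and 11.9 in the controls, and it weighs in the sum. Of the 13 markers only 7 lay higher, and Alb, the brightest, differed by 0.04 and Apob by -0.17. The separated sum thus does not describe the list, and a sum without the fibrinogen genes was not taken. Neutrophil markers (12 measured, 8 of them dim) had a median of 0.19 and summed to 86.9 to 95.1 against 80.5 to 80.6, with the defining marker Ly6g dim in both groups. The neutrophil genes Mmp8, S100a8 and Retnlg, all dim, led that list, with differences of 0.74, 0.46 and 0.59. Of the 12 markers, 10 lay higher, while Camp, also dim, differed by -0.41. Adipocyte markers (7 measured, 3 dim) had a median of 0.08 and summed to 264 to 459 against 282 to 389, with Adipoq dim in both groups. The lipid-handling genes Fabp4 (0.99) and Cidec (-1.22) and the leptin gene Lep (0.47, dim) led it.

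Among markers of bile duct cells, or cholangiocytes, Tff3, encoding a trefoil factor, stood close to the threshold. It lay at 6.71, 6.42 and 6.70 in knockout replicates 1 to 3 and at 5.19, 5.6005 and 5.39 in the controls (difference 1.22, limma adjusted p = 0.0761), and it passed without knockout replicate 3 (1.17, adjusted p = 0.0400). The other leading genes of the list were Cftr (0.42, dim) and Krt19 (0.10). Cholangiocyte markers (6 measured, 2 dim) had a median of 0.10 and summed to 142 to 172 in the knockout and 94.0 to 109 in the controls. Tff3 was the brightest of the 6 on every array, weighed most in this sum and was the only 1 whose groups did not overlap. Epcam (0.11, dim) lay slightly higher, and Krt7 (-0.05) and Sox9 (-0.01) slightly lower. Knockout replicate 2, the highest for Saa2 and Apcs, was the lowest knockout array in this sum, as it was for Tff3 itself. The sum thus does not describe the list as a whole.

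Sinusoidal endothelial markers (10 measured) had a median of 0.22 and summed to 985 to 1618 in the knockout and 945 to 977 in the controls, with knockout replicate 2 highest. Lyve1 (0.92, limma adjusted p = 0.178), Cdh5 (0.54) and Dnase1l3 (0.41) led them. Stellate cell and fibroblast markers (12 measured) had a median of 0.11 and sums that overlapped, 713 to 1349 against 651 to 822. The collagen genes Col3a1 (0.86, limma adjusted p = 0.130) and Col1a2 (0.60) and the actin gene Acta2 (-0.39) led them. Lymphocyte markers (8 measured, 4 dim) had a median of 0.10 and summed to 86.5 to 89.9 against 74.6 to 80.2. They were led by the T cell genes Cd3e (0.61, limma adjusted p = 0.249), Cd4 (0.18) and Cd8a (0.26, dim). No gene of these lists passed with all arrays. The part of these cells in the members' differences was not tested.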

How the data were processed

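Per the labels' protocols, biotinylated cRNA was made from total liver RNA for whole-transcript arrays. The tools named in the submitters' processing notes are RMA and Affymetrix Expression Console 1.4.1. The authors deposited log2 expression values for 41345 probe sets on 6 arrays. RMA sets arrays to a common distribution, so a change common to most transcripts would be hidden. Platform annotation gave 1 gene symbol to 23521 probe sets and several to 1814, and 16010 were not in it. The brightest probe set was kept per gene, which left 22180 genes, with no filter on dim probe sets. Probe sets of near-identical genes can cross-hybridise.

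Knockout and control were compared with lmFit and eBayes of limma 3.58.1 (R 4.3.3), Benjamini-Hochberg adjustment over all genes and a threshold of 0.05. Single genes and pairs of members also had exact 2-sided permutation tests (scipy 1.17.1). Of 15 pairs planned, 10 could be formed, since Saa1 had no probe set of its own. The limma fit was tested on simulated data. Motifs were searched on both strands, and upstream windows were aligned globally with biopython 1.88.

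The members, lists, and naming rule were chosen with earlier results of these data known. Named were all members, the 3 genes most like each member, and in each list the 3 genes with the largest statistics and defining markers; further genes, such as Il6, Il1b, Tnf, Apoa1, Ptx3, the C/EBP and Mbl genes, Creb3l3, Adgre1 and Cd5l, were named after their values were seen. The motifs were also chosen after the expression values were known. Of 191 listed genes 175 were measured. Same-numbered arrays did not deviate together (correlations 0.006, 0.053 and 0.015 across genes), so numbers were not taken as pairs. Alternatives were the variance prior, array weights, normalization, the dim filter, the choice of probe set, a replicate block and leaving out each array. No pair of arrays was identical (0 pairs).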

Additional observations from a re-analysis of the deposited data

How the results depend on the processing

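Saa2, Saa4 and Apcs kept a higher knockout mean under all 15 alternatives. The probe set shared by Saa1 and Saa2 did so under 12, which were added after seeing the data. The variance priors, the dim filter, the replicate block and the choice of probe set could not move these differences. Only array weights, normalization and leaving out arrays could have changed the direction. Apcs passed 0.05 with a variance prior that follows intensity (difference 2.14, limma adjusted p = 0.0202) and with the dim filter (2.14, 0.0306), and otherwise without knockout replicate 3. Leaving out single arrays gave 2.88 to 4.93 for Saa2, 1.89 to 2.28 for Apcs, 0.38 to 0.62 for Saa4, -0.49 to 0.14 for Saa3, -0.076 to 0.14 for Crp, and 2.96 to 4.63 for the shared probe set. Crp, near 0, turned sign with array weights (-0.014), renewed quantile normalization (-0.0061) and centring on array medians (-1e-04), and without knockout replicate 2 (-0.0495), knockout replicate 3 (-0.0683), control replicate 1 (-0.0763) or control replicate 3 (-0.0011), and Saa3 turned without knockout replicate 1 (0.14); the cause was not tested. Pairs whose groups did not overlap numbered 6 to 9 without single arrays. Smaller groups separate more readily, so a higher count there does not show a firmer result. Among 80 pair values under alternatives, 2 turned direction, both for Saa3 minus Crp, which ran from -0.44 to 0.037 without single arrays. Of all genes, 25 passed with the intensity trend, 8 with the dim filter (fewer genes tested), 1 with the replicate block, and 0 to 66 without single arrays, with 66 without knockout replicate 3 and 3 without control replicate 3. With the replicate block the limma adjusted p was 0.146 for Apcs and 0.262 for Saa2, and it changed no member's call. Counts of listed genes without single arrays were also added after seeing the data. Small group size limits every value.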

Other observations

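The 3 nearest protein-coding genes on either side of the serum amyloid A cluster, Sergef, Tph1, Saal1, Hps5, Gtf2h1 and Ldha, and of the pair Crp and Apcs, Slamf8, Fcrl6, Dusp23, Olfr16, Olfr1408 and Olfr1406, were taken by RefSeq order after the member values were seen. All 12 were measured, but 5 of them, Tph1, Fcrl6 and the Olfr genes, were dim, where a difference would hardly show. Their differences ran from -0.32 to 0.43, and 0 passed an adjusted p of 0.05 in limma. An unadjusted p under 0.05 was found for 1, with a higher knockout mean (5.06% of all genes). Saal1, which adjoins Saa3, lay at 3.31, 3.71 and 3.65 in knockout replicates 1 to 3 and at 3.38, 3.68 and 3.39 in the controls. Hps5, which adjoins Saa2, lay at 4.57, 4.27 and 3.63 in knockout replicates 1 to 3 and at 4.17, 4.51 and 4.24 in the controls. Gtf2h1 was the only one of the 12 whose groups did not overlap, with a difference of -0.30. Among all genes, 9.14% had all knockout arrays below all controls.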
